A study of Homo sapiens with 82 samples.

Results

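The 10 genes described here are ID1, ID2, ID3, ID4, SMAD6, SMAD7, BAMBI, BMP2, BMP4 and LTBP1. These genes send, store, restrain or respond to bone morphogenetic protein (BMP) and transforming growth factor beta (TGF-beta) signals. They were taken by symbol from the 51838 rows of the gene count tables, and each symbol matched 1 row. RNA was sequenced from HT29, an established colorectal adenocarcinoma cell line, in 32 libraries. Over 24 or 48 h the cells received rosiglitazone, T0901317 or GW3965, each at 10 μM, or their carrier DMSO, which gave 8 groups of 4 libraries. GW3965 and T0901317 are agonists of the liver X receptors (LXRs), and rosiglitazone is an agonist of peroxisome proliferator-activated receptor gamma (PPARG). All cells, those of the DMSO groups included, were kept before treatment in medium free of phenol red and with charcoal-treated serum. HT29 is a single tumour line. The study's methods give 4 replicate treatments per group and time without saying that they were made on separate days or passages, so p-values measure the spread between these replicates, which may be technical.

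BMP ligands bind receptor kinases at the cell surface, which phosphorylate SMAD1, SMAD5 and SMAD8, while TGF-beta receptors phosphorylate SMAD2 and SMAD3. The SMADs then enter the nucleus, usually with SMAD4, and switch on target genes. ID1 to ID4 are among the classic BMP targets, and their proteins pair with helix-loop-helix transcription factors that then no longer bind DNA. SMAD6, SMAD7 and BAMBI are induced by the same signals and dampen them. In the intestine BMP signalling rises toward the top of the crypt and is tied to differentiation, and HT29 is known to carry a truncating SMAD4 mutation.

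The sequence before the transcription start is shown for 5 of the genes whose levels are followed below. RefSeq promoters of build GRCh38.p14 were found for 9 of the 10 genes, the exception being BMP2. ID1 is shown because its group means spanned the widest range of the set. SMAD6, BAMBI, BMP4 and LTBP1 are shown because at least 1 of the marked motifs lies in their window. Each sequence covers the 250 bases before the start, 5′ to 3′ on the strand of the gene, and for BMP4 and LTBP1, which have 3 starts each in the table, the first is shown. Capitals mark the palindromic SMAD element GTCTAGAC, the GC-rich SMAD element GGCGCC and the cyclic AMP response element TGACGTCA, and no marked match overlaps another.
ID1, chr20:31605039-31605288, plus strand: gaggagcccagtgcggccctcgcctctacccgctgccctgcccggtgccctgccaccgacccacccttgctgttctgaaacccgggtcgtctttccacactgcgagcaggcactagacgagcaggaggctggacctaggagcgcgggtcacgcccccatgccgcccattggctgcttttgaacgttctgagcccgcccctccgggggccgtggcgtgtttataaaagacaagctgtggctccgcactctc
SMAD6, chr15:66701986-66702235, plus strand: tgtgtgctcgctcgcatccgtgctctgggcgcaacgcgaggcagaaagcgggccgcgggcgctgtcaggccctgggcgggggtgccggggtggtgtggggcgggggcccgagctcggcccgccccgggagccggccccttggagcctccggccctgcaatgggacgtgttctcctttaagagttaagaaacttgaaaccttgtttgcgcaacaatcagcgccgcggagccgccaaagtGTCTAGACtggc
BAMBI, chr10:28677271-28677520, plus strand: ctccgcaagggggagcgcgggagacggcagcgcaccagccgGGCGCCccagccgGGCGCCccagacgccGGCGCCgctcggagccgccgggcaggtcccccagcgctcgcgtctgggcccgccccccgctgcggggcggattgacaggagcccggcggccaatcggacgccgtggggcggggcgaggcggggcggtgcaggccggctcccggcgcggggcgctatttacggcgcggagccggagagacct
BMP4, chr14:53955051-53955300, minus strand: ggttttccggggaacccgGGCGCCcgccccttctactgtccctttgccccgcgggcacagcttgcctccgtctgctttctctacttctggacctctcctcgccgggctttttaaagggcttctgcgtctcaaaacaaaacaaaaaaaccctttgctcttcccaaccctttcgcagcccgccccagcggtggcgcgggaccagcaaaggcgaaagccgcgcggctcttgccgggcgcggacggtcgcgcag
LTBP1, chr2:32946703-32946952, plus strand: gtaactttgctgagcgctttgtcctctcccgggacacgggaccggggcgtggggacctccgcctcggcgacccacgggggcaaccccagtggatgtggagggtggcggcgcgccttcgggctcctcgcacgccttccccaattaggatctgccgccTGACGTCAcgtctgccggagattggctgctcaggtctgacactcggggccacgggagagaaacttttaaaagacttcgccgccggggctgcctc

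The SMAD6 window held GTCTAGAC once, beginning 12 bases before the start, and this motif was present in 0.182% of 35116 promoter windows of the same length. GGCGCC began 209, 196 and 181 bases before the start of BAMBI and 232 bases before the first start of BMP4. It was present in 16.4% of all windows. TGACGTCA began 94 bases before the first LTBP1 start and was present in 1.65% of windows. At the other listed starts of BMP4 and LTBP1 neither motif had a match. The AP-1 motif TGANTCA, which 6.57% of windows held, had no match in any listed start of the 9 genes. Both strands were searched. Shorter patterns are common and were not marked: the SMAD box CAGAC was present in 38% of windows and the E-box CANNTG in 61.8%. A variant of the GC-rich element, GGAGCC, was present in 30.6% of windows, and in a looser form, GGCNCC, the element was present in 59.8%. Such matches are letters in a window and not measured binding sites.

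Total counts ran from 21044798 to 51332656 per library, with the lowest in replicate 2 of T0901317 at 24 h. In the chi-square of counts between replicates, GW3965 replicate 1 at 24 h stood apart from its group (31.8 to 73.2 per degree of freedom, against 5.30 to 11.5 among the other three), and values were also high between T0901317 replicates 1 and 3 (36.4) and rosiglitazone replicates 1 and 3 (53.1) at 48 h. Levels are given as CPM, read counts of a gene relative to the total of its library, on 1 scale set over all 32 libraries by the TMM method. Each drug was compared with the DMSO group of its own time point by the edgeR quasi-likelihood test, and a gene rose or fell where the Benjamini-Hochberg adjusted p was under 0.01. Fold changes are on the log2 scale and carry standard errors (SE). Of the 10 genes, 8 passed the filter on low counts and ID3 and ID4 did not. The 10 epithelial and colon markers were present in every library, with medians from 3.10 CPM for CDX1 to 9472 CPM for KRT8, and 14.6 CPM for CDX2. Of 9 markers of immune, stromal, endothelial, liver and lung cells, COL1A1 had the highest median, 5.80 CPM, which was above that of CDX1, and the other 8 had medians of at most 0.253 CPM. PTPRC, CD3E, COL1A2, DCN, ALB and SFTPC had a median of 0. The 24 and 48 h libraries are separate sets, so the hour and any difference in handling between the sets cannot be told apart.

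The responses differed by drug, and with the LXR agonists they also differed by hour for 5 of the 8 genes tested. At 24 h LTBP1 alone among the 8 genes tested passed with the LXR agonists. ID1 with both agonists and BMP2 with T0901317 did not pass, though their libraries did not overlap those of DMSO. The same held at 24 h for SMAD6, SMAD7 and BMP4 with rosiglitazone (adjusted p between 0.0740 and 0.452). The share of all genes without overlap was not computed. At 48 h ID1, SMAD7 and BMP2 fell and BMP4 and LTBP1 rose with GW3965. The same 5 genes moved in the same directions with T0901317, which also lowered SMAD6 and BAMBI. Compared directly, the LXR agonists were not shown to differ in BAMBI (adjusted p = 0.501). In these bulk libraries fewer expressing cells and less RNA per cell cannot be told apart. Rosiglitazone raised ID1 and LTBP1 and lowered ID2 at both time points, and lowered BMP2 at 24 h.

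At 24 h, 1 of the 8 genes tested rose and 0 fell with GW3965, where 1.86% and 0.868% of all 21781 genes tested rose and fell. With T0901317, 1 rose and 0 fell, against 1.33% and 0.119% of all genes. With rosiglitazone, 2 rose and 2 fell, against 5.81% and 6.52%. At 48 h, 2 rose and 3 fell with GW3965, against 16.1% and 17.5% of 22470 genes. With T0901317, 2 rose and 5 fell, against 14.0% and 16.1%. With rosiglitazone, 2 rose and 1 fell, against 12.3% and 13.1%. Called changes of at least 2-fold at 24 h numbered 1, 0 and 2 of the 8 genes in the order GW3965, T0901317, rosiglitazone, against 0.537%, 0.280% and 2.18% of all genes. For 48 h the numbers were 4, 6 and 2, against 5.77%, 5.40% and 5.86%. The median log2 fold change of the 8 genes at 48 h was -0.42 with GW3965 and -0.69 with T0901317, where the medians of all genes were 0.00 and 0.01. Each median joins genes that rose and genes that fell. Within an hour the 3 comparisons use the same DMSO libraries. The genes were chosen with earlier results of these data known, so the shares set beside them are description only.

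**Figure D1:**
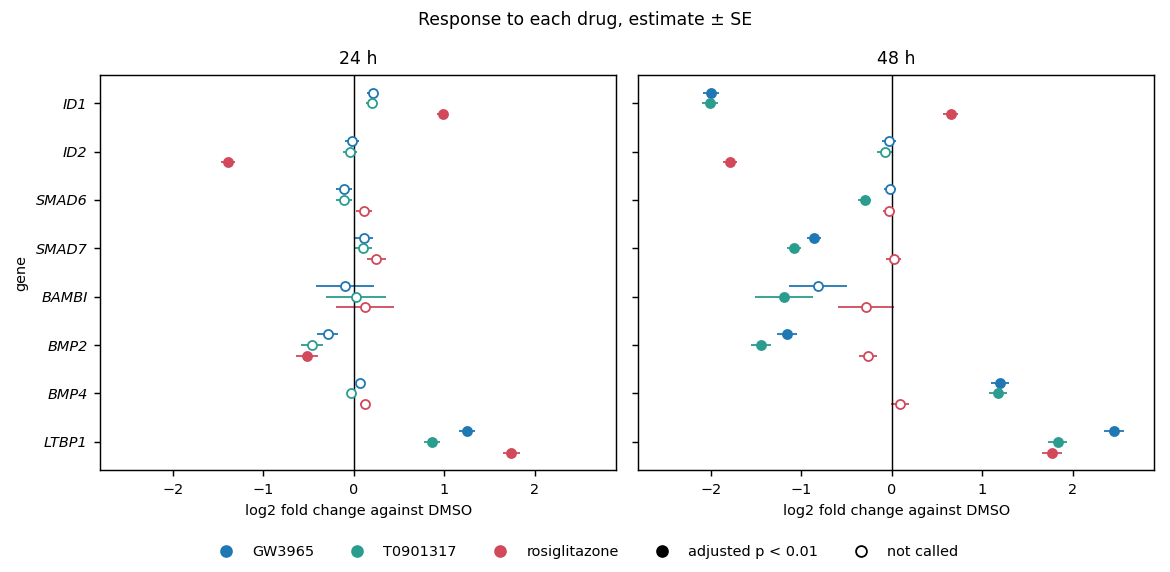
Log2 fold change against DMSO (x axis) of the 8 tested genes (y axis) at 24 h (left) and 48 h (right), with bars of 1 SE, filled where the adjusted p was under 0.01. ID1 stands at -2.00 and -2.01 with the LXR agonists and at 0.65 with rosiglitazone at 48 h, while LTBP1 lies to the right of 0 in all 6 comparisons.

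ID1 encodes an inhibitor of DNA binding that is kept high in stem and progenitor cells and is widely used as a reporter of BMP signalling. In DMSO it stood at 42.0, 41.9, 40.4 and 39.3 CPM at 24 h and at 174, 150, 186 and 169 CPM at 48 h. The DMSO level thus rose by 2.05 ± 0.08 (log2, SE) between the time points (adjusted p = 4.94e-20), and the groups did not overlap.

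With GW3965 the libraries had 48.5, 50.3, 46.5 and 44.2 CPM of ID1 at 24 h and 44.0, 40.8, 46.8 and 39.0 CPM at 48 h. With T0901317 they had 46.9, 45.4, 44.1 and 51.2 CPM at 24 h and 39.9, 38.6, 49.8 and 39.6 CPM at 48 h. The level under either LXR agonist therefore stayed near that of DMSO at 24 h, while the DMSO level at 48 h was about 4 times as high. Relative to DMSO at 24 h, ID1 differed by 0.21 ± 0.06 under GW3965 (adjusted p = 0.0753) and by 0.20 ± 0.06 under T0901317 (adjusted p = 0.138). At 48 h it fell by 2.00 ± 0.09 (adjusted p = 1.61e-12) under GW3965 and fell by 2.01 ± 0.09 (adjusted p = 1.77e-12) under T0901317 on the log2 scale. All 8 libraries of the LXR agonists at 48 h lay below the 4 DMSO libraries of that hour. From 24 to 48 h the GW3965 libraries changed by -0.15 ± 0.08 (adjusted p = 0.115) and the T0901317 libraries by -0.16 ± 0.08 (adjusted p = 0.0966).

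With rosiglitazone ID1 had 87.5, 79.3, 72.5 and 84.3 CPM at 24 h and 282, 274, 247 and 277 CPM at 48 h. It was above DMSO in 4 of 4 libraries at each hour, by 0.98 ± 0.06 (adjusted p = 1.51e-09) and 0.65 ± 0.08 (adjusted p = 4.46e-06). The 24 to 48 h rise seen in DMSO was present with rosiglitazone as well, at 1.74 ± 0.08 (adjusted p = 1.11e-18). In the order of the group means, rosiglitazone at 48 h (270.2 CPM), DMSO at 48 h (169.5 CPM) and rosiglitazone at 24 h (80.9 CPM) were separate from each other and from the rest. The other 5 groups had means between 40.9 and 47.4 CPM, and each overlapped its neighbour in that order. Groups further apart in the order could still be separate. At 24 h the lowest GW3965 and T0901317 libraries (44.2 and 44.1 CPM) lay above the highest DMSO library (42.0 CPM).

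**Figure D2:**
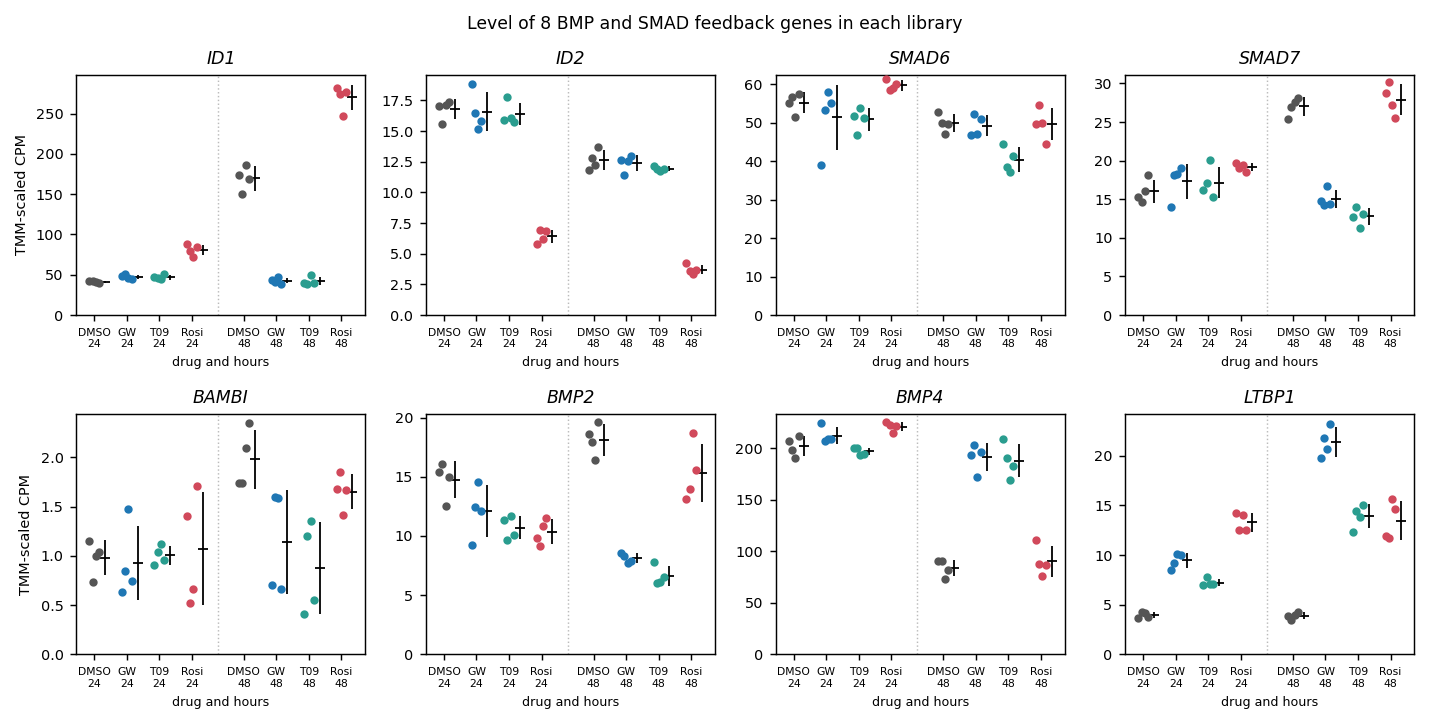
CPM (y axis, from 0) of 8 genes in the 32 libraries by drug and hour (x axis; GW is GW3965, T09 is T0901317, Rosi is rosiglitazone), with 1 point per library and bars of the mean ± SD of 4 libraries. ID1 and SMAD7 are high at 48 h in DMSO and rosiglitazone libraries only, BMP4 is low in those same groups, and ID2 is low in the rosiglitazone libraries of both hours.

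ID2 encodes a second inhibitor of the family, found in many differentiating and lymphoid cells and also a BMP target. Rosiglitazone libraries held 5.81, 6.90, 6.16 and 6.86 CPM at 24 h, against 17.02, 15.6, 17.1 and 17.4 CPM in DMSO. At 48 h they held 4.21, 3.60, 3.32 and 3.67 CPM, against 11.8, 12.8, 12.3 and 13.7 CPM in DMSO. Every rosiglitazone library was below every DMSO library, and ID2 fell by 1.39 ± 0.08 on the log2 scale (adjusted p = 3.50e-10) at the first hour and fell by 1.79 ± 0.08 (adjusted p = 7.09e-12) at the second. ID1 and ID2 thus moved in opposite directions with the PPARG agonist.

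With the LXR agonists ID2 overlapped DMSO at both hours. With GW3965 it ranged from 15.2 to 18.8 CPM at 24 h and from 11.4 to 12.9 CPM at 48 h, and with T0901317 from 15.8 to 17.8 CPM and from 11.7 to 12.2 CPM. The 95% intervals of the log2 difference from DMSO at 48 h were -0.19 to 0.13 with GW3965 and -0.24 to 0.07 with T0901317. ID2 also fell by 0.41 ± 0.07 in DMSO between 24 and 48 h (adjusted p = 2.32e-05), so the ID1 and ID2 levels went opposite ways with time. The LXR groups fell over the same interval by 0.42 ± 0.07 (adjusted p = 2.23e-05) and 0.46 ± 0.07 (adjusted p = 7.46e-06).

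ID3 and ID4, the remaining members of the family, were close to undetected. ID3 had 13, 5, 7 and 1 reads in the DMSO libraries at 24 h and 4, 4, 2 and 3 at 48 h. In the 12 drug-treated libraries at 24 h it had 0 reads in 10 and 2 reads in each of the other two. At 48 h it had 1 read in each GW3965 library, 6, 3, 2 and 0 reads with T0901317 and 4, 0, 0 and 2 reads with rosiglitazone. ID4 had at most 4 reads in any library, with 2, 2, 0 and 4 reads in DMSO at 24 h. Tested without the filter on low counts, neither gene passed in any of the 6 comparisons, the lowest adjusted p being 0.0204 for ID3 with GW3965 at 24 h. Differences of these genes were not resolved at this depth.

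SMAD7 encodes an inhibitory SMAD that blocks TGF-beta and BMP receptors and brings ubiquitin ligases to them. Its level in DMSO was 15.3, 14.6, 16.1 and 18.1 CPM at 24 h and 25.4, 27, 27.7 and 28.2 CPM at 48 h, a rise of 0.76 ± 0.09 (log2; adjusted p = 1.29e-08). At 48 h GW3965 libraries held 14.7, 14.2, 16.7 and 14.4 CPM and T0901317 libraries 12.7, 14.01, 11.3 and 13.1 CPM. None of these 8 values reached the lowest DMSO value of that hour, and SMAD7 fell by 0.86 ± 0.08 with GW3965 (adjusted p = 3.84e-08) and by 1.08 ± 0.08 with T0901317 (adjusted p = 2.05e-09) on the log2 scale. At 24 h it differed from DMSO by 0.11 ± 0.10 and 0.10 ± 0.10, with overlapping groups. Rosiglitazone libraries at 48 h ranged from 25.6 to 30.2 CPM around the DMSO values, a log2 difference of 0.02 with a 95% interval of -0.13 to 0.18. At 24 h the rosiglitazone libraries lay above those of DMSO without overlap, by 0.25 ± 0.10, and SMAD7 did not pass (adjusted p = 0.0740).

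SMAD6 encodes the inhibitory SMAD that acts mainly on BMP receptors, and the palindrome in its promoter window was shown above. It had the lowest ratio of the highest to the lowest group mean among the 8 genes tested, with means from 40.4 CPM with T0901317 at 48 h to 59.7 CPM with rosiglitazone at 24 h. At 48 h T0901317 libraries held 44.4, 38.5, 37.3 and 41.3 CPM against 52.8, 49.9, 47.2 and 49.7 CPM in DMSO, and SMAD6 fell by 0.30 ± 0.07 (adjusted p = 0.00170), less than 1.5-fold. GW3965 libraries at 48 h ranged from 46.7 to 52.3 CPM, a log2 difference of -0.02 with a 95% interval of -0.17 to 0.12. The interval for SMAD6 does not reach the fall of SMAD7 with the same agonist. With rosiglitazone SMAD6 differed by 0.11 ± 0.09 at 24 h (adjusted p = 0.452) and by -0.03 ± 0.07 at 48 h (adjusted p = 0.807). At 24 h it differed by -0.11 ± 0.09 with GW3965 and with T0901317 (adjusted p = 0.669 and 0.703).

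BAMBI encodes a receptor without a kinase domain that occupies BMP and TGF-beta receptor complexes. It was a low-count gene, with 18 to 86 reads per library. In DMSO it had 1.15, 0.735, 0.998 and 1.04 CPM at 24 h and 1.73, 1.74, 2.10 and 2.34 CPM at 48 h, a log2 difference with a 95% interval of 0.33 to 1.68 that did not pass (adjusted p = 0.0121). At 48 h T0901317 libraries had 0.405, 1.20, 1.35 and 0.554 CPM, and GW3965 libraries had 0.709, 1.60, 1.59 and 0.663 CPM. Replicates 1 and 4 were lower than replicates 2 and 3 with both agonists, and all 8 values were under the lowest DMSO value. BAMBI fell by 1.19 ± 0.32 on the log2 scale with T0901317 (adjusted p = 0.00567) and differed by -0.82 ± 0.32 with GW3965 (adjusted p = 0.0411). The T0901317 call was lost when T0901317 replicate 1 or 4, or DMSO replicate 3 or 4, was left out, with adjusted p between 0.0145 and 0.0227. At 24 h BAMBI differed from DMSO by -0.10 ± 0.32 with GW3965, 0.02 ± 0.33 with T0901317 and 0.12 ± 0.32 with rosiglitazone, and passed with none. With rosiglitazone at 48 h the difference was -0.29 ± 0.31 (adjusted p = 0.514).

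BMP4 and BMP2 encode the ligands of the set, and they went in opposite directions with the LXR agonists at 48 h. BMP4 in DMSO stood at 207, 198, 191 and 212 CPM at 24 h and at 90.1, 90.4, 73.3 and 81.5 CPM at 48 h. It therefore fell by 1.27 ± 0.08 with time on the log2 scale (adjusted p = 1.63e-14). At 48 h it stood at 193, 203, 172 and 197 CPM with GW3965 and at 209, 191, 170 and 183 CPM with T0901317. These values were all above the 4 DMSO values of that hour, and BMP4 rose by 1.19 ± 0.10 (adjusted p = 1.40e-08) and 1.17 ± 0.10 (adjusted p = 1.80e-08). At 24 h the LXR groups differed from DMSO by 0.07 ± 0.05 and -0.03 ± 0.05. From 24 to 48 h BMP4 changed by -0.15 ± 0.08 under GW3965 (adjusted p = 0.127) and by -0.07 ± 0.08 under T0901317 (adjusted p = 0.515), so as for ID1 the LXR groups of 48 h lay near the level of 24 h and the DMSO group did not. Rosiglitazone libraries held 226, 223, 215 and 221 CPM at 24 h and 111, 87.7, 75.6 and 86.7 CPM at 48 h, and BMP4 fell with time by 1.29 ± 0.08 (adjusted p = 6.82e-15), as DMSO did. Over the 8 group means BMP4 split into 6 groups between 188 and 221 CPM, each overlapping its neighbour, and 2 groups, DMSO and rosiglitazone at 48 h, at 83.8 and 90.3 CPM.

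BMP2, the second ligand, passed at 24 h with rosiglitazone alone. The DMSO libraries had 15.4, 16.1, 12.5 and 15.01 CPM, and the rosiglitazone libraries had 9.86, 9.15, 10.8 and 11.6 CPM. The groups did not overlap, and BMP2 fell by 0.52 ± 0.12 on the log2 scale (adjusted p = 0.00391), a call that was lost when rosiglitazone replicate 1 or 2, or DMSO replicate 1, 2 or 4, was left out (adjusted p between 0.0114 and 0.0179). With GW3965 and T0901317 the differences at 24 h were -0.29 ± 0.12 (adjusted p = 0.216) and -0.46 ± 0.12 (adjusted p = 0.0483). At 48 h BMP2 had 18.6, 17.9, 16.4 and 19.6 CPM in DMSO, 8.59, 8.35, 7.70 and 7.90 CPM with GW3965 and 7.84, 6.04, 6.15 and 6.51 CPM with T0901317. Every LXR library was below the lowest DMSO library, and BMP2 fell by 1.16 ± 0.11 with GW3965 (adjusted p = 3.95e-08) and by 1.45 ± 0.11 with T0901317 (adjusted p = 2.75e-09). Rosiglitazone libraries spread from 13.1 to 18.7 CPM at 48 h and overlapped DMSO, with a difference of -0.26 ± 0.10 (adjusted p = 0.0531). Without replicate 3, the highest of them, the difference was -0.37 and passed (adjusted p = 0.00473).

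LTBP1 encodes a matrix protein that binds latent TGF-beta and anchors it outside the cell, and it was the gene of the set that rose with every drug at each hour. In DMSO it had 3.70, 4.22, 4.20 and 3.79 CPM at 24 h and 3.88, 3.48, 4.003 and 4.24 CPM at 48 h, a log2 difference of -0.03 with a 95% interval of -0.24 to 0.19. GW3965 libraries had 8.51, 9.25, 10.1 and 10.0 CPM at 24 h and 19.8, 21.8, 20.7 and 23.2 CPM at 48 h. T0901317 libraries had 7.02, 7.80, 7.08 and 7.04 CPM at 24 h and 12.3, 14.5, 13.8 and 15.03 CPM at 48 h. No treated library overlapped DMSO, and the rise with GW3965 was 1.25 ± 0.09 (adjusted p = 9.23e-09), then 2.45 ± 0.11 (adjusted p = 1.55e-12), and with T0901317 0.86 ± 0.09 (adjusted p = 4.53e-06) and 1.83 ± 0.11 (adjusted p = 1.13e-10). Rosiglitazone libraries had 14.3, 12.5, 14.0 and 12.5 CPM at 24 h and 11.9, 11.7, 15.6 and 14.6 CPM at 48 h. Here the rise was 1.74 ± 0.09 (adjusted p = 4.47e-11) at the first and 1.77 ± 0.11 (adjusted p = 2.19e-10) at the second, and the difference between the hours was 0.04 with a 95% interval of -0.23 to 0.32. In the order of group means GW3965 at 48 h (21.4 CPM) was separate from T0901317 at 48 h and both rosiglitazone groups, which overlapped one another between 13.3 and 13.9 CPM, and these were separate from GW3965 and T0901317 at 24 h (9.47 and 7.23 CPM) and from DMSO. LTBP1 spans several pseudogenes, BMP4 and ID3 each overlap a long non-coding RNA in RefSeq, and the strand setting of the counting is not given in the sources used here, so reads of these neighbours cannot be told apart.

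Whether the response of a gene differed between the hours was tested by the interaction of drug and hour, with the 32 libraries fitted together. With GW3965 it differed for 5 of the 8 genes and with T0901317 for 5 of the 8, against 21.6% and 17.4% of 23140 genes. The log2 response of ID1 at 48 h less that at 24 h was -2.20 ± 0.11 with GW3965 and -2.21 ± 0.11 with T0901317. It was -0.97 ± 0.13 and -1.18 ± 0.13 for SMAD7, -0.87 ± 0.16 and -0.99 ± 0.16 for BMP2, 1.12 ± 0.11 and 1.20 ± 0.11 for BMP4 and 1.20 ± 0.14 and 0.97 ± 0.14 for LTBP1. The adjusted p of these 10 differences was at most 8.19e-05. With rosiglitazone 0 of the 8 genes passed, against 2.45% of all genes. At an unadjusted p under 0.05, ID1 and ID2 differed, by -0.31 ± 0.11 (adjusted p = 0.0780) and -0.39 ± 0.11 (adjusted p = 0.0355), and 0 passed with DESeq2.

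In DMSO itself, 2 of the 8 genes rose and 2 fell between 24 and 48 h, against 19.7% and 18.9% of all genes. They were ID1 and SMAD7, which rose, and BMP4 and ID2, which fell. The comparisons of 48 h with 24 h within each drug were added after the data had been seen. In them 3 of the 8 genes changed with GW3965, 5 with T0901317 and 6 with rosiglitazone, against 31.4%, 32.1% and 43.6% of all genes. The rosiglitazone count was 5 where SMAD6 (-0.26, adjusted p = 0.00686) lost its call, which happened without any rosiglitazone library of 24 h and without replicate 1, 3 or 4 of 48 h (adjusted p between 0.0139 and 0.0390). ID1 and BMP4 changed with time in DMSO and rosiglitazone and did not pass with either LXR agonist, while LTBP1 changed with time with the LXR agonists and did not pass in DMSO or rosiglitazone. BMP2 fell with time by 0.57 ± 0.12 with GW3965 (adjusted p = 1.52e-04) and by 0.69 ± 0.12 with T0901317 (adjusted p = 1.85e-05). With rosiglitazone it rose by 0.57 ± 0.12 (adjusted p = 9.58e-05). In DMSO it differed in the same direction, by 0.30 ± 0.11, and did not pass (adjusted p = 0.0278). The rosiglitazone response of BMP2 was not shown to differ between the hours (0.27 ± 0.16, adjusted p = 0.364).

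**Figure D3:**
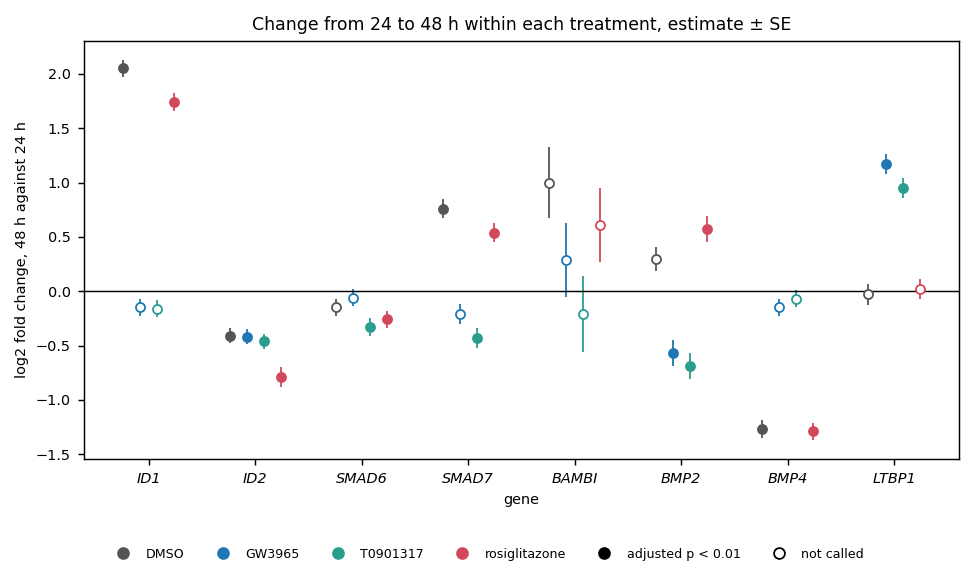
Log2 fold change of 48 h against 24 h (y axis) within DMSO and each drug for the 8 tested genes (x axis), with bars of 1 SE, filled where the adjusted p was under 0.01. ID1 changed by 2.05 in DMSO and 1.74 in rosiglitazone but by -0.15 and -0.16 with the LXR agonists, and BMP4 fell by 1.27 in DMSO and fell by 1.29 in rosiglitazone while it changed by -0.15 and -0.07 with the LXR agonists.

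The LXR agonists were compared directly at the same dose and hour. At 24 h 0 of the 8 genes differed between them, against 0.790% of all genes, and 1 gene, LTBP1, passed with DESeq2. LTBP1 was higher with GW3965 by 0.39 ± 0.08 (adjusted p = 0.0187 with edgeR and 0.00310 with DESeq2), it was the lowest of the 8 genes by unadjusted p, and it was the only one under 0.05 before adjustment. At 48 h 2 of the 8 genes differed, against 8.36% of all genes. LTBP1 was higher with GW3965 by 0.62 ± 0.09 (adjusted p = 2.60e-04) in 4 of 4 libraries, and SMAD6 by 0.28 ± 0.07 (adjusted p = 0.00937). The SMAD6 call was lost when any GW3965 library of that hour, or T0901317 replicate 2, 3 or 4, was left out, with adjusted p between 0.0142 and 0.0355. For ID1 and BMP4 the 95% intervals of the log2 difference between the agonists at 48 h were -0.16 to 0.19 and -0.18 to 0.22. For SMAD7 and BMP2 the intervals were 0.06 to 0.39 and 0.06 to 0.51, both toward lower levels with T0901317, and neither gene passed (adjusted p = 0.0516 and 0.0776). For BAMBI, which passed against DMSO with T0901317 only, the interval was -0.32 to 1.07 (adjusted p = 0.501).

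Rosiglitazone and GW3965 were also compared directly. At 24 h 3 of the 8 genes differed, against 10.7% of all genes, and at 48 h 6 differed, against 45.0%. ID1 was higher with rosiglitazone by 0.77 ± 0.06 (adjusted p = 3.98e-08) and 2.65 ± 0.09 (adjusted p = 2.31e-14) at the 2 hours. ID2 was lower by 1.37 ± 0.08 and 1.76 ± 0.08 (log2 differences of -1.37 and -1.76; adjusted p = 4.52e-10 and 2.36e-12). LTBP1 was higher with rosiglitazone at 24 h, by 0.49 ± 0.08 (adjusted p = 2.08e-04), and lower at 48 h, by -0.68 ± 0.10 (adjusted p = 4.52e-06). At 48 h SMAD7 and BMP2 were also higher, by 0.88 ± 0.08 and 0.90 ± 0.11, and BMP4 was lower, at -1.10 ± 0.10.

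The rest of the pathway was described with 8 lists of 105 genes, all of which had a row in the count tables and 72 of which passed the low-count filter at each hour. In the order GW3965, T0901317, rosiglitazone, 8, 3 and 23 were called at 24 h and 42, 41 and 34 at 48 h. The split at 48 h was 13 higher and 29 lower with GW3965, 15 and 26 with T0901317 and 17 and 17 with rosiglitazone. The called shares of the 72 genes were 11.1%, 4.17% and 31.9% at 24 h and 58.3%, 56.9% and 47.2% at 48 h. Of all genes at 48 h, 16.1% rose and 17.5% fell with GW3965, 14.0% and 16.1% with T0901317, and 12.3% and 13.1% with rosiglitazone. The shares of all genes at 24 h were those given above. The lists, too, were chosen with earlier results of these data known. The markers of other cell types summed to between 5.45 and 7.27 CPM in DMSO and between 8.34 and 9.30 CPM with GW3965 at 48 h. COL1A1 was the only marker of that list that passed (8.07 against 5.57 CPM with GW3965 at 48 h), and its part in these results was not tested. Of the 10 epithelial and colon markers, 5 rose with GW3965, 3 rose and 2 fell with T0901317, and 4 rose and 3 fell with rosiglitazone at 48 h, against 2, 1 and 4 that rose and 0, 0 and 1 that fell at 24 h. Their sum at 48 h ran from 17430 to 18530 CPM in DMSO, from 16550 to 17290 CPM with GW3965, from 14730 to 16270 CPM with T0901317 and from 18720 to 22380 CPM with rosiglitazone. KRT8 and KRT18 made up most of this sum, with medians of 9472 and 7377 CPM over all libraries. By the sum, the LXR libraries of 48 h lay below the DMSO libraries and the rosiglitazone libraries above. The median log2 difference of the 10 markers from DMSO was not negative then: 0.45 under GW3965, 0.04 under T0901317 and 0.09 under rosiglitazone. For 24 h the sums of all drug-treated libraries, 18990 CPM or more, exceeded those of DMSO (17510 to 18910 CPM). The part of these shifts in the results was not tested either.

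Among 12 other SMAD target genes, 10 were tested. At 48 h 7 fell and 0 rose with GW3965 and 8 fell and 0 rose with T0901317, with medians of -0.90 and -0.96 (log2), while 4 rose and 2 fell with rosiglitazone, with a median of 0.15. Of all genes, 17.5% and 16.1% fell with GW3965 and T0901317, and 12.3% rose and 13.1% fell with rosiglitazone. KLF10, a TGF-beta-inducible repressor, went from 123 CPM in DMSO to 28.2 and 25.3 CPM with the LXR agonists, a fall of 2.13 ± 0.06 and 2.29 ± 0.06 (adjusted p = 4.52e-15 and 2.05e-15). CDKN2B, which encodes the cell cycle inhibitor p15, fell by 2.06 and 2.12 (adjusted p = 5.22e-10 and 3.92e-10), and JUNB, a subunit of AP-1, fell by 1.39 and 1.65. CTGF, a matrix-associated growth factor, fell with each drug at 48 h, by 1.49 with GW3965, 0.98 with T0901317 and 1.53 with rosiglitazone (log2 fold changes of -1.49, -0.98 and -1.53), and it also fell at 24 h with GW3965 (-0.74) and rosiglitazone (-1.88). With rosiglitazone TSC22D1, a leucine zipper gene named for its induction by TGF-beta and the highest of the list by mean CPM, rose from 117 to 375 CPM at 48 h (1.66, adjusted p = 2.19e-10), while with T0901317 it fell by 0.39. ATOH8, a helix-loop-helix gene, fell by 1.84 with rosiglitazone at 24 h and fell by 3.27 at 48 h, when it also fell by 0.94 with T0901317. At 24 h 3 of the 10 rose and 1 fell with GW3965, among them CDKN1A, which encodes the cell cycle inhibitor p21 and rose by 1.03 (adjusted p = 2.99e-08). CDKN1A rose by 0.84 with T0901317 and fell by 0.56 with rosiglitazone at 24 h, and at 48 h it fell by 0.61 with GW3965 and fell by 0.82 with T0901317. With T0901317 1 rose and 0 fell at 24 h, and with rosiglitazone 1 rose and 3 fell.

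Of 20 other ligands of the family, 10 were tested, with 5 higher and 2 lower with GW3965, 3 and 3 with T0901317 and 2 and 2 with rosiglitazone at 48 h. GDF15, a stress-induced ligand and the most highly counted of this list, went from 37.4 CPM in DMSO at 24 h to 639 CPM at 48 h. It was at 111 and 112 CPM with the LXR agonists at 48 h, a fall of 2.53 and 2.51 (adjusted p = 6.95e-12 and 8.54e-12), and at 535 CPM with rosiglitazone, which did not pass at that hour (-0.28, adjusted p = 0.0642) except with library size alone as the scale (-0.46, adjusted p = 0.00401). TGFB2 fell with each drug at 48 h (-1.71 with GW3965, -0.92 with T0901317 and -1.28 with rosiglitazone). BMP8B rose by 1.14 with GW3965 and 0.97 with T0901317 and did not pass with rosiglitazone (-0.50, adjusted p = 0.0198). At 24 h 0 ligands were called with either LXR agonist, and with rosiglitazone 1 rose and 1, GDF15, fell by 0.79.

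Of 16 receptors and coreceptors 12 were tested, and at 48 h 3 rose and 3 fell with GW3965, 4 rose and 2 fell with T0901317, and 0 rose and 5 fell with rosiglitazone. All of these changes were under 2-fold. TGFBR2, the signal-initiating TGF-beta receptor and the highest of the list, rose by 0.25 and 0.23 with the LXR agonists and did not pass with rosiglitazone (-0.19, adjusted p = 0.0223). The T0901317 call was lost without DMSO replicate 3 or 4 or T0901317 replicate 1, 2 or 4, at 0.16 to 0.24 (adjusted p between 0.0102 and 0.0245). At 24 h 1 fell with GW3965, 0 were called with T0901317, and 1 rose and 3 fell with rosiglitazone. All 6 signal SMADs were tested, and 3 fell and 0 rose at 48 h with either LXR agonist, while 1 rose and 1 fell with rosiglitazone at each hour and 0 were called with the LXR agonists at 24 h. SMAD3, which carries TGF-beta signals, fell by 0.88 with GW3965 and 0.69 with T0901317 and rose by 0.76 with rosiglitazone at 48 h (adjusted p at most 2.99e-06).

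The 14 intracellular attenuators, which include ubiquitin ligases and SMAD corepressors, were all tested. At 48 h 9 fell and 0 rose with GW3965, 6 fell and 1 rose with T0901317, and 4 rose and 3 fell with rosiglitazone, with medians of -0.34, -0.18 and 0.11. SKIL, a corepressor of SMAD3 and itself a TGF-beta target, fell by 1.01 with GW3965 (adjusted p = 1.76e-08), and it fell by 0.65 with T0901317 and fell by 0.32 with rosiglitazone. At 24 h SKIL fell by 0.38 with GW3965 and fell by 0.34 with rosiglitazone. PMEPA1, which keeps SMADs from the receptor and has the highest mean of the list over all libraries, although SKI was higher in each group at 24 h, fell by 0.57 and 0.84 with the LXR agonists and rose by 0.74 with rosiglitazone. At 24 h 1 fell with GW3965, 0 were called with T0901317, and 2 rose and 2 fell with rosiglitazone. Of 18 extracellular antagonists 6 were tested. At 48 h 3 rose with GW3965 and 4 with T0901317, and 0 fell with either. CHRD, which encodes the BMP antagonist chordin, went from 19.2 CPM in DMSO to 39.2 and 38.3 CPM with GW3965 and T0901317 at 48 h (adjusted p = 5.58e-09 and 8.42e-09) and fell by 0.38 with rosiglitazone. SOSTDC1, another secreted BMP antagonist, rose by 0.91 with GW3965 and 1.51 with T0901317 and fell by 1.43 with rosiglitazone at 48 h. FSTL3, which binds activins, rose from 3.71 to 10.64 CPM with rosiglitazone (adjusted p = 3.74e-07), in a list where 3 rose and 2 fell. NBL1, the highest of the list, rose by 0.53, 0.34 and 0.34 with GW3965, T0901317 and rosiglitazone, and with library size alone as the scale the rosiglitazone value was 0.16 and did not pass (adjusted p = 0.0789). At 24 h 1 antagonist fell with GW3965, 1 rose with T0901317, and 2 rose and 1 fell with rosiglitazone, where SOSTDC1 fell by 1.40. The antagonist that fell with GW3965 was SOSTDC1 as well (-0.66), and the one that rose with T0901317 was CHRD (0.81).

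Of 12 genes that handle latent TGF-beta, 9 were tested at 24 h and 8 at 48 h. THBS1, which encodes an activator of latent TGF-beta, fell by 1.03 and 1.25 with the LXR agonists at 48 h (adjusted p = 1.70e-06 and 1.90e-07) and rose by 1.24 and 1.08 with rosiglitazone at 24 and 48 h, whereas LTBP1 rose with all 3 drugs. LTBP3, the highest of the list, fell by 0.81 with GW3965 at 24 h and rose by 0.44 with rosiglitazone at 48 h. In all, 1 rose and 3 fell with GW3965, 2 and 2 with T0901317 and 2 and 0 with rosiglitazone at 48 h, and 0 and 1, 0 and 0, and 2 and 0 at 24 h. Of 7 helix-loop-helix partners of the ID proteins, 5 were tested at 24 h and 6 at 48 h. TCF3, which encodes the E proteins E12 and E47 and is the highest of the list, rose by 0.53 with rosiglitazone at 48 h and did not pass in the other 5 comparisons. With the 8 libraries of the compared groups alone, TCF3 passed with rosiglitazone at 24 h (0.36, adjusted p = 0.00105) and with GW3965 at 48 h (0.22, adjusted p = 0.00398). It passed with T0901317 at 48 h without DMSO replicate 3 (-0.38, adjusted p = 0.00988) or T0901317 replicate 1 (-0.42, adjusted p = 0.00306). ATOH1, which specifies secretory cells of the gut, fell by 1.80 with rosiglitazone at 24 h and fell by 4.32 at 48 h, from 2.50 to 0.121 CPM, and it fell by 0.98 with T0901317 at 24 h. HES1, a Notch target and repressor of ATOH1, fell with each drug at 48 h (-1.35 with GW3965, -1.17 with T0901317 and -0.88 with rosiglitazone) and fell by 0.61 with rosiglitazone at 24 h. In this list 1 rose and 2 fell with each drug at 48 h, and 0, 1 and 2 fell with GW3965, T0901317 and rosiglitazone at 24 h.

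**Figure D4:**
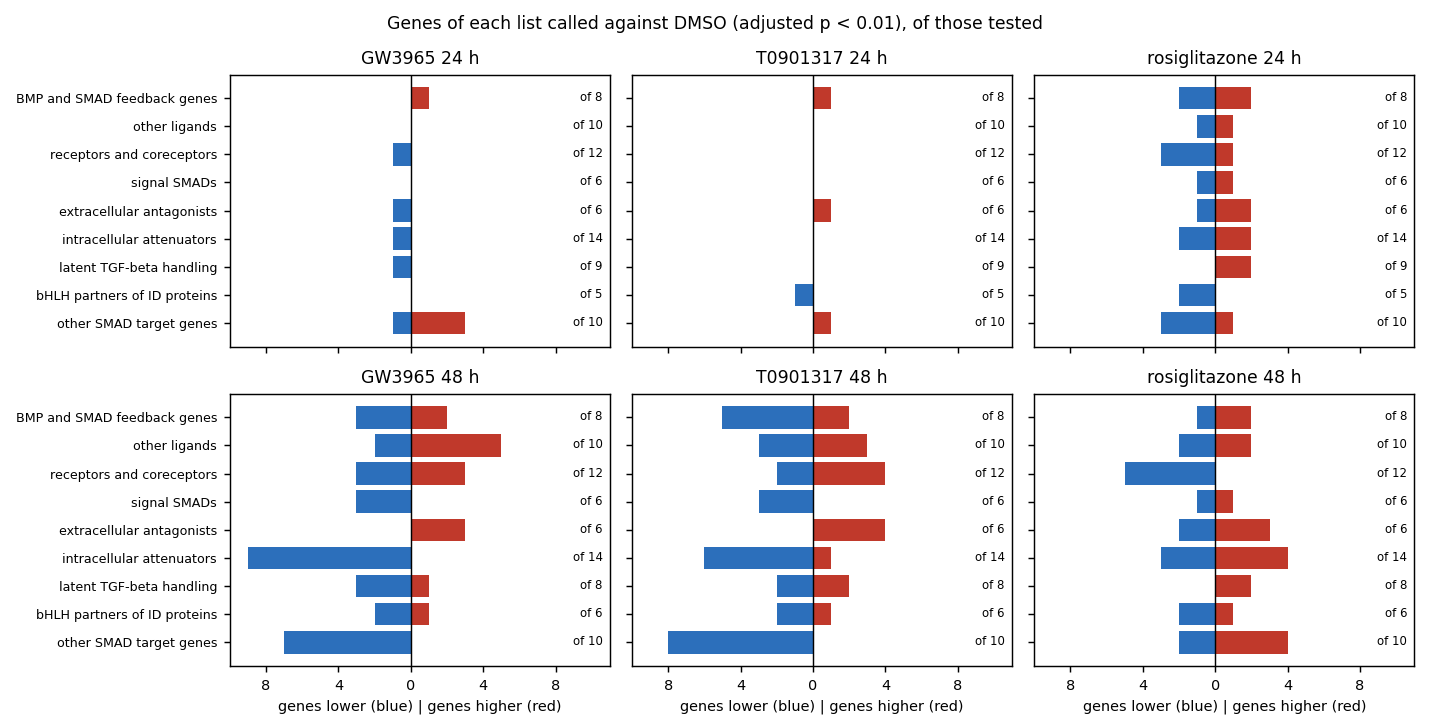
Number of genes called lower (to the left) and higher (to the right; x axis) in each list (y axis) against DMSO, with the number tested at the right of each row. At 48 h the other SMAD target genes stand at 7 and 8 lower with the LXR agonists and at 4 higher and 2 lower with rosiglitazone. Of all genes at 48 h, 17.5% and 16.1% were lower with GW3965 and T0901317, and 12.3% higher and 13.1% lower with rosiglitazone.

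Genes outside the set with a similar profile were sought among 4276 genes whose average log2 CPM reached 1 and whose range spanned 1 or more over the 8 group means. By Pearson correlation over these 8 means, ARHGAP29 (0.992), RP11-463O12.3 (0.991), RP11-727F15.9 (0.990), SNORD63 (0.988) and PHLDA1 (0.987) were most like ID1. The profile most like that of BMP4 was TSHZ1 (0.997), that of SMAD7 was C7orf40 (0.984), that of LTBP1 was AC007003.1 (0.977), that of ID2 was SAMD5 (0.975), that of BAMBI was NAB2 (0.962), that of BMP2 was EIF5A2 (0.958) and that of SMAD6 was AC122129.3 (0.950). By Spearman correlation PHLDA1 ranked nearest to ID1, and for each of the other 7 genes the nearest was a different gene from the one named here. Within the set, ID1 had a correlation of 0.945 with SMAD7, 0.877 with BAMBI and -0.890 with BMP4, and 0.113 with SMAD6. ID1 and ID2 had a correlation of -0.755. These values rest on 8 points that share libraries and treatments, and describe likeness only.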

How the data were processed

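RNA of HT29 cells was sequenced from both ends after mRNA selection and Nextera fragmentation, and the authors deposited raw integer read counts for each Ensembl gene in 1 table per time point. The submitters' processing notes name TopHat, Cufflinks and hg19 without their roles. The 32 columns were mapped to samples by name. Counting program and strand setting: not given in the sources used here. ChIP-seq peaks of the other samples of the series were not used here.

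The counts of each time point were fitted with edgeR 4.0.16 in R 4.3.3 (filterByExpr, TMM, quasi-likelihood test, Benjamini-Hochberg adjustment over 21781 genes at 24 h and 22470 at 48 h). Interactions and comparisons between time points used all 32 libraries and 23140 genes. The biological coefficient of variation was 0.0981, 0.101 and 0.0998. SE is the log2 fold change divided by the root of the F statistic, and edgeR shrinks fold changes of low counts slightly. The 48 pairs of replicates within groups all differed by more than counting noise, with a chi-square per degree of freedom between 3.66 and 73.2. The functions were tested on simulated data. Alternatives were DESeq2 1.42.0, RLE or library-size scaling, no filter, 8 or 32 libraries in the fit, a replicate block, a threshold of 1.5-fold and leaving out each library. A pathway gene was named if it had the highest mean CPM of its list over all libraries, or was called at 2-fold or more and its average log2 CPM reached 1. One such gene is not reported here. Genes given as profiles alike were the 5 of highest Pearson correlation for ID1 and the highest for each other called gene. A library far from its group was sought with Dixon's gap. The genes and lists were chosen with earlier results of these data known. Promoter sequences are those of RefSeq.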

Additional observations from a re-analysis of the deposited data

Results flagged for a closer look

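The response to the LXR agonists differed between 24 and 48 h for 5 genes, by the test of the difference itself. The 48 h response less that at 24 h (log2) was -2.20 for ID1, -0.97 for SMAD7, -0.87 for BMP2, 1.12 for BMP4 and 1.20 for LTBP1 with GW3965. With T0901317 it was -2.21 for ID1, -1.18 for SMAD7, -0.99 for BMP2, 1.20 for BMP4 and 0.97 for LTBP1. The GW3965 and T0901317 contrasts share their DMSO libraries.

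In 4 of 64 combinations of gene and group, 1 library stood apart from the other 3, as a gap divided by the range of the group. Chance gives about 1 in 20. The gap was 0.880 for ID1 with T0901317 at 48 h (replicate 3, the highest) and 0.899 for BMP4 with GW3965 at 24 h (replicate 1, the highest). It was 0.844 for ID2 and 0.921 for LTBP1 with T0901317 at 24 h, in both cases for replicate 2, the highest of its group and the library of lowest total count (21044798). Leaving out this library changed no call of ID2 or LTBP1 against DMSO. Without replicate 3 of T0901317 at 48 h, the ID1 change from 24 to 48 h within T0901317 moved from -0.16 (adjusted p = 0.0966) to -0.26 (adjusted p = 0.00694).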

How the results depend on the processing

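No member's log2 fold change that passed in either fit changed sign under any alternative run. With a threshold of 1.5-fold in the test, 3 genes instead of 5 fell with T0901317 at 48 h, 1 instead of 2 rose with rosiglitazone at 48 h, 1 instead of 2 fell with rosiglitazone at 24 h, and 0 instead of 1 rose with T0901317 at 24 h. The calls lost were SMAD6 and BAMBI, ID1, BMP2 and LTBP1. With library size alone as the scale, 2 genes instead of 1 fell with rosiglitazone at 48 h (BMP2 at -0.44, adjusted p = 7.52e-04), and 1 instead of 2 differed between the LXR agonists at 48 h, where SMAD6 stood at 0.20 (adjusted p = 0.0322). BMP2 also passed in DMSO over time with this scale (0.32, adjusted p = 0.00766). With DESeq2, 1 gene instead of 0, LTBP1, differed between the LXR agonists at 24 h, and BMP4 rose by 0.14 with rosiglitazone at 24 h (adjusted p = 0.00849). RLE scaling, no filter, and 8 or 32 libraries in the fit were run for the 6 comparisons with DMSO and changed no call of a member there. Of 78 values of named pathway genes, 18 calls were lost with the 1.5-fold threshold and DESeq2 changed 0. TGFBR2 fell by 0.36 with rosiglitazone at 48 h under library size alone (adjusted p = 4.95e-05) and fell by 0.16 with 32 libraries (adjusted p = 0.00918). With 8 libraries LTBP3 did not pass with GW3965 at 24 h (adjusted p = 0.0165) and passed at 48 h (-0.19, adjusted p = 0.00216), as did TSC22D1 (-0.25, adjusted p = 3.69e-04). NBL1 passed with GW3965 at 24 h without GW3965 replicate 1 (0.32, adjusted p = 0.00130). Without DMSO replicate 3 or rosiglitazone replicate 1, 3 or 4, SMAD3 lost its call with rosiglitazone at 24 h (adjusted p between 0.0107 and 0.0171), and TSC22D1 lost its call with T0901317 at 48 h without DMSO replicate 3 or 4 (adjusted p = 0.0114 and 0.0110). When single libraries were left out, the number that differed between the LXR agonists ran from 0 to 1 at 24 h and from 1 to 2 at 48 h, the number that fell with rosiglitazone from 1 to 2 at each hour, and the number whose rosiglitazone response differed between the hours from 0 to 1 (ID2 at -0.46 without rosiglitazone replicate 1 of 48 h). Without GW3965 replicate 1 of 24 h, LTBP1 differed between the agonists at that hour (0.44, adjusted p = 0.00653), and SMAD7 fell from 24 to 48 h within GW3965 (-0.30, adjusted p = 0.00467).

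The labels give the groups the same replicate numbers. Same-numbered libraries of a time point had correlations of their deviations between -0.394 and 0.487. Of 48 pairs, 10 were over 0.1 and 13 were most alike their own number, where chance gives about 1 in 4. The median correlation was 0.023. The main tests used no pairing. For replicate 3 at 24 h the correlation was 0.487 between T0901317 and GW3965, and 0.269 and 0.298 between these and rosiglitazone. For the same replicate it was -0.394, -0.341 and -0.195 between DMSO and T0901317, GW3965 and rosiglitazone. For T0901317 and rosiglitazone at 24 h, which were not compared with each other, all 4 pairs were over 0.1 (0.103 to 0.269). With a replicate block, the genes that fell with T0901317 at 48 h numbered 5 and those that fell with GW3965 numbered 3, as without it, and BAMBI passed in DMSO over time (1.03, adjusted p = 0.00832). The block changed no other call of a member. Counts under about 20 per library limit what can be said of ID3 and ID4, and those of 18 to 86 limit BAMBI.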
